A study of Mus musculus with 21 samples.

Results

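The clustered protocadherins were taken as every gene of the RNA-seq table whose symbol starts with Pcdha, Pcdhb or Pcdhg followed by a number, or by a further letter a, b or c and a number. The rule found 25 of 37620 genes, of which 2 belong to the alpha cluster, 22 to the beta cluster and 1 to the gamma cluster. The RNA came from germ cells enriched from testes of wild-type C57BL/6J (B6) males at 12 days postpartum (dpp), digested with collagenase and trypsin and labelled as spermatocytes. There were 4 sample numbers, 186wt, 343wt, 444wt and 456wt, each with 3 libraries, and all 12 libraries share strain, age and genotype. Each mean ± SD below is over the 4 numbers, after averaging within each number. The other assays of the study were not analysed here.

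Protocadherins are adhesion proteins of the cadherin superfamily. The clustered ones lie in tandem arrays on chromosome 18 and are best known from neurons, where each cell transcribes only some of them and the proteins bind like partners on other cells, which lets a neuron tell its own branches from those of others. In the alpha and gamma clusters each variable exon has its own promoter and is spliced to constant exons that encode a shared cytoplasmic tail. The beta genes are mostly single-exon genes that lack this shared tail. In neurons promoter choice depends on the insulator protein CTCF, on cohesin and on distant enhancers, and promoters that are not chosen carry DNA methylation.

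This gene structure decides what the table can tell apart. Positions are those of the GENCODE M1 annotation on NCBI build 37, where all 25 genes lie on the plus strand of chromosome 18 over 911.6 kb. The entry named Pcdha4 (ENSMUSG00000007440) spans 257.4 kb, from 37089939 to 37347311, and holds 10 transcripts, 9 of which end in the constant exons that start at 37315809, 37318919 and 37344600. In this annotation the entry is thus the alpha locus as a whole rather than one variable exon, and its symbol there is Pcdha11. The annotation release the authors used is not given in the sources used here, so the transcripts behind this entry and the gamma entry are taken from GENCODE M1, and the comparison of the clusters rests on that. The other alpha entry, Pcdha3 (ENSMUSG00000091969), is a 1-transcript gene inside it. The entry named Pcdhga9 (ENSMUSG00000023036, Pcdhgc5 in GENCODE M1) is likewise annotated as the gamma locus. It spans 167.5 kb, from 37833989 to 38001527, with 10 transcripts that all hold the constant exons starting at 37992919 and 37999557. RefSeq names 14 alpha, 22 beta and 22 gamma genes, so the variable exons of the alpha and gamma clusters, C-type ones included, cannot be ranked here, whereas all 22 beta genes have an entry each. Of the beta genes 18 have a single exon.

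The reads were 100 bases long, and the beta genes could mostly be told apart at that length. Of the 22 beta genes 11 had no 100-base window in common with another member, and the largest share was 2.54% of windows. On the alpha locus 10.8% of windows also occurred in protein-coding transcripts of other genes on either strand. Noncoding transcripts were not searched. The antisense protein-coding gene Gm10545 holds 2790 exonic bases that overlap alpha exons and was listed at 0 FPKM. Its overlap and the shared windows can thus be the same bases. On the gamma locus the antisense noncoding gene Gm16882 overlaps the gamma exons by 1647 bases, with a level of 1.495 ± 0.215 FPKM. The sources used here give no strand setting for the counting, so reads of these overlaps could belong to either gene.

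Levels are the deposited FPKM, fragments scaled to transcript length in kilobases and to the mapped reads of a library, and being per length they can be compared between genes. A gene was counted as expressed at a mean of at least 0.1 FPKM, which 55.3% of all genes reached. The FPKM of a library summed to between 477629 and 485096, and the depth estimated from the steps between low values was 13.2 to 17.9 M fragments per library. The libraries held meiotic transcripts throughout (the synaptonemal complex gene Sycp3 had 73.1 ± 18.1 FPKM), but also RNA of somatic testis cells, with 1844 ± 574 FPKM for the Sertoli-cell gene Clu. In such bulk samples a smaller share of cells of a type and less RNA per cell cannot be told apart.

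The gamma locus was by far the most abundant, and the beta genes and the alpha locus were low. The alpha locus as a whole, at 0.229 ± 0.0392 FPKM, was at the level of the median single beta gene (0.228 FPKM). These are unlike units, since the alpha entry joins 10 annotated transcripts and each beta gene has its own entry. Divided over its transcripts, the alpha locus had 0.0229 FPKM each, against a mean of 0.286 FPKM per beta gene. Summed over its genes, the gamma cluster had 25.1 ± 2.06 FPKM, the beta cluster 6.30 ± 1.76 FPKM and the alpha cluster 0.234 ± 0.0472 FPKM (SD, n = 4). The plot of summed FPKM by library shows that the clusters did not overlap in any of the 12 libraries. Gamma ranged from 22.33 to 27.64 FPKM, beta from 4.69 to 9.10 FPKM and alpha from 0.12 to 0.32 FPKM.

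**Figure D1:**
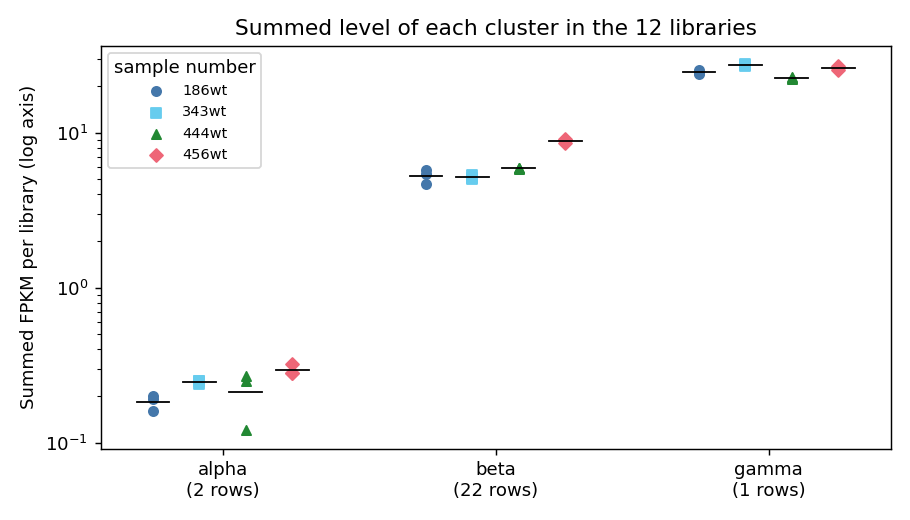
Summed FPKM of the alpha (2 genes), beta (22 genes) and gamma (1 gene) clusters on a log axis, with 1 point for each of the 12 libraries, marked by sample number, and a bar at the mean of each number's 3 libraries. The 3 clusters occupy separate ranges in every library, and the 3 beta sums of 456wt, from 8.56 to 9.10 FPKM, lie above the other 9.

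Within each sample number the order was gamma, beta, alpha in 4 of 4. On the log2 scale the gamma sum exceeded the beta sum by 2.22 in 186wt, 2.40 in 343wt, 1.94 in 444wt and 1.56 in 456wt, a mean of 2.03 ± 0.36. As a linear ratio this ran from 2.95 to 5.28. The beta sum exceeded the alpha sum by 4.73 ± 0.24 and the gamma sum exceeded the alpha sum by 6.76 ± 0.24 on the same scale. These differences were several times their SD. No test was made on them, since 4 paired values cannot give a two-sided exact sign-flip p below 1 in 8. Gamma made up 79.5 ± 4.11% of the summed FPKM of the 25 genes and beta 19.7 ± 4.05%.

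**Figure D2:**
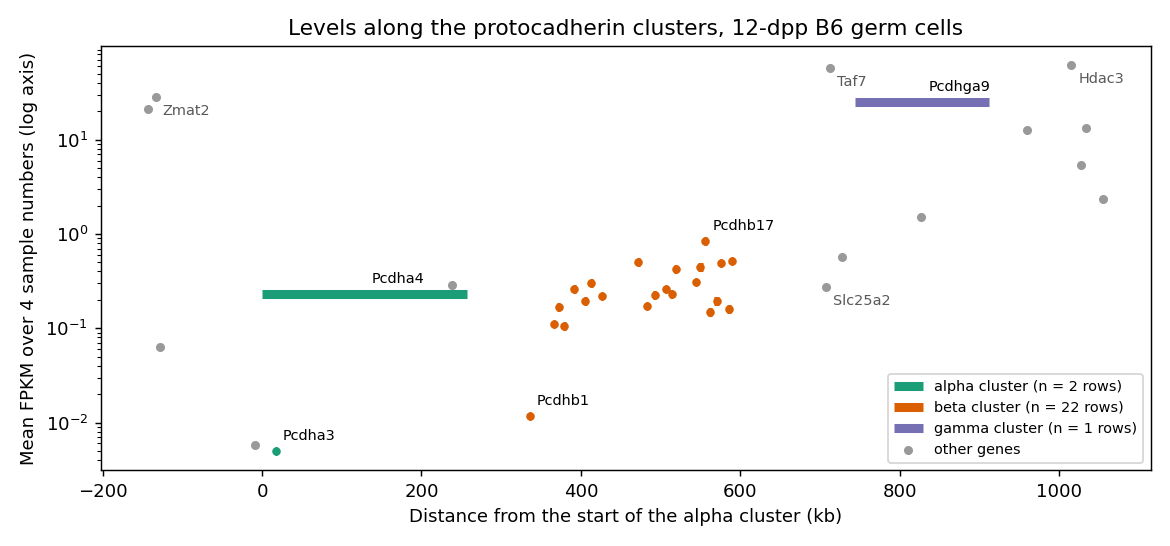
Mean FPKM over the 4 sample numbers (log axis) against the distance in kb from the start of the alpha cluster, with each protocadherin drawn over its annotated span and other genes as grey points; genes listed at 0 are not drawn. The alpha locus lies at 0.229 FPKM, the beta genes between 0.0117 and 0.846 FPKM and the gamma locus at 25.1 FPKM, near Zmat2 at 28.1 FPKM and below Taf7 and Hdac3.

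The gamma locus was at 24.30, 23.86 and 25.22 FPKM in the libraries of 186wt, at 26.88, 27.17 and 27.64 in 343wt, at 22.33, 22.73 and 22.67 in 444wt, and at 25.40, 27.09 and 26.32 in 456wt. The 3 libraries of 444wt were lower than all others. The mean was higher than that of 88.3% of all genes. The sample numbers differed by up to 0.27 on the log2(FPKM + 0.1) scale, with 343wt highest and 444wt lowest, and the difference passed the test (limma F-test, Benjamini-Hochberg adjusted p = 9.23e-05). The 3 libraries of a number may share an RNA, so p-values measure the spread between these libraries, which may be technical.

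The alpha locus had 0.20, 0.16 and 0.19 FPKM in 186wt, 0.25, 0.24 and 0.25 in 343wt, 0.27, 0.12 and 0.25 in 444wt, and 0.32, 0.25 and 0.25 in 456wt. The libraries of 186wt were below those of 343wt and 456wt, and those of 444wt overlapped every other number. The locus did not pass the limma test (adjusted p = 0.551). Pcdha3 was listed at 0 in 10 of 12 libraries and at 0.03 FPKM in a pair of 456wt libraries, about 2.13 fragments in all. Pcdha3 was thus below the level for testing.

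Among the beta genes, 21 of 22 were expressed in the mean over sample numbers, and 19 to 21 of them in a single number. The median beta gene had 0.228 FPKM. Of the 22, 19 were between 0.1 and 0.5 FPKM, 2 were higher, and the remaining gene, Pcdhb1, was lower. In these bulk means the beta genes were thus low, with no group of high genes, and 21 of them were above 0 in each of the 12 libraries. Which genes a single cell transcribes cannot be read from such means. The highest was Pcdhb17 with 0.846 ± 0.299 FPKM, followed by Pcdhb22 with 0.512 ± 0.192 FPKM and Pcdhb9 with 0.498 ± 0.194 FPKM. Pcdhb20, which GENCODE M1 annotates as a pseudogene, had 0.497 ± 0.131 FPKM. Neighbours in this order beyond Pcdhb17 differed by less than their SD. The 5 highest genes held 44.3 ± 0.628% of the beta sum.

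At the other end stood Pcdhb1, the gene nearest the alpha cluster. It was listed at 0 in 7 of 12 libraries and at 0.02 or 0.03 FPKM in the others, about 5.10 fragments in all, with a mean of 0.0117 ± 0.00577 FPKM. A single fragment is worth about 0.0277 FPKM on this gene in a library of median depth. Over the 12 libraries together a beta gene had an estimated 148.5 fragments in the median and 496.0 at most. The median CV between sample numbers was 33.3%.

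The order of the beta genes was much the same in each sample. Spearman's rho of the 22 levels between pairs of sample numbers was 0.838 to 0.951, across genes of the same libraries' depth and annotation. Level and position went together only in part: rho between the level and the order along the chromosome was 0.497 over the 22 genes. The 11 genes nearer the alpha cluster had a median of 0.195 FPKM, and the 11 nearer the gamma cluster a median of 0.313 FPKM. Transcript lengths were 2340 to 7131 bp and GC contents 41.2 to 52.6%.

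**Figure D3:**
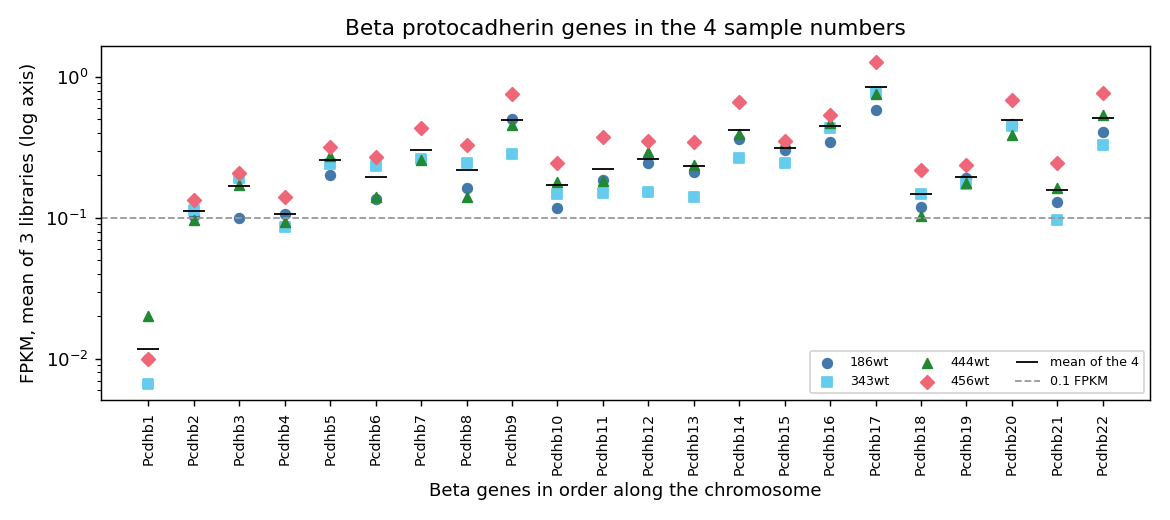
FPKM of the 22 beta genes (log axis) in chromosomal order, with 1 marker for the mean of 3 libraries of each sample number, a dash for the mean of the 4 numbers and a broken line at 0.1 FPKM; 1 sample number at 0.01 FPKM lies under another for Pcdhb1. The diamonds of 456wt are the highest marker for 21 of the 22 genes.

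The 4 samples did not hold the beta genes at one level. The beta sum was 5.26 FPKM in 186wt, 5.16 in 343wt, 5.88 in 444wt and 8.90 in 456wt, and 456wt had 1.64 times the mean of the other numbers. The 3 libraries of 456wt had 8.56 to 9.10 FPKM and the other 9 libraries 4.69 to 5.92 FPKM. By mean FPKM 456wt was highest for 21 of 22 beta genes, the exception being Pcdhb1. The lowest was 343wt for 11 genes, 186wt for 6 and 444wt for 5. Without its highest gene Pcdhb17 the beta sum kept the same order, with 4.68, 4.39, 5.13 and 7.62 FPKM.

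Gene by gene, fewer of these differences passed a test. In the limma fit over all genes, 58.2% of 20795 tested genes differed between the sample numbers at an adjusted p under 0.05. Of the 25 protocadherins 23 were tested and 7 passed, the gamma locus and 6 of 21 beta genes, below the share over all genes. Of the 6447 genes with a mean from 0.1 to below 1 FPKM, where all tested beta genes lie, 19.2% were called, against 83.3% of the 7507 genes from 10 to below 100 FPKM. All 3 libraries of 456wt were above the other 9 libraries for 8 of the 22 beta genes, against 9.18% of all tested genes and 5.29% of those between 0.1 and 1 FPKM. The 8 genes were Pcdhb7, Pcdhb11, Pcdhb13, Pcdhb14, Pcdhb17, Pcdhb20, Pcdhb21 and Pcdhb22.

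Pcdhb17 showed the separation most clearly. Its libraries had 0.70, 0.53 and 0.53 FPKM in 186wt, 0.79, 0.82 and 0.69 in 343wt, 0.75, 0.79 and 0.72 in 444wt, and 1.31, 1.34 and 1.18 in 456wt. No other beta gene reached 1 FPKM in any library. The log2(FPKM + 0.1) range between sample numbers was 1.01 (limma adjusted p = 0.00106).

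Pcdhb9 was high in 456wt and low in 343wt. It had 0.46, 0.40 and 0.64 FPKM in 186wt, 0.36, 0.30 and 0.19 in 343wt, 0.46, 0.38 and 0.53 in 444wt, and 0.60, 0.81 and 0.85 in 456wt. The libraries of 343wt were below all others, 456wt overlapped 186wt in 1 library of each, and the range of 1.17 on the log2 scale passed (limma adjusted p = 0.0125). For Pcdhb22 the libraries had 0.28, 0.41 and 0.54 FPKM in 186wt, 0.44, 0.22 and 0.33 in 343wt, 0.56, 0.62 and 0.44 in 444wt, and 0.78, 0.65 and 0.88 in 456wt. Here 456wt stood clear of the rest and the other numbers overlapped (range 1.04, limma adjusted p = 0.0248).

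The 3 other called beta genes had the same highest sample and lower levels. Pcdhb14 had 0.363, 0.267, 0.397 and 0.667 FPKM in 186wt, 343wt, 444wt and 456wt (limma adjusted p = 0.0320). Pcdhb13 had 0.210, 0.140, 0.237 and 0.347 FPKM (adjusted p = 0.0290), and Pcdhb11 0.187, 0.150, 0.183 and 0.373 FPKM (adjusted p = 0.0432). Their libraries of 456wt lay above all others. Pcdhb20 had 0.467, 0.447, 0.387 and 0.687 FPKM and did not pass (limma adjusted p = 0.0768). The other 14 tested beta genes had adjusted p-values of 0.106 to 0.914, and 7 of 21 had an unadjusted p under 0.05.

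These calls rested on 456wt. Without that sample number limma called 0 of 20 tested beta genes (0 also at an unadjusted p under 0.05), while 50.8% of all tested genes were still called, and the adjusted p-values of the 6 genes were 0.132 to 0.837. Without 343wt only Pcdhb17 was called. Pcdhb11, Pcdhb13 and Pcdhb14 also missed the threshold with quantile normalization (limma adjusted p = 0.0944, 0.117 and 0.0977) and on leaving out library 1, 2 or 3 of every number (0.0709 to 0.330). Pcdhb22 missed it with quantile normalization (0.0827) and in the same 3 library leave-outs (0.0806 to 0.143), and Pcdhb9 without library 2 (0.111) or library 3 (0.126). The gamma locus passed without 456wt (adjusted p = 0.000218) and under all 15 alternatives tried, with adjusted p-values of 5.62e-05 to 0.0131.

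Markers of other cell types moved with the sample numbers too, and are set beside the protocadherins in the plot of marker lists. The beta sum had the order 456wt, 444wt, 186wt, 343wt. The summed FPKM of 6 peritubular myoid markers, led by the smooth-muscle actin gene Acta2, had the same order, with 1161 in 456wt, 695 in 444wt, 553 in 186wt and 261 in 343wt. Des departed from it, with 5.31 FPKM in 186wt, below the 6.10 in 343wt. All 6 had their 3 libraries of 456wt above the other 9 libraries, against 9.18% of all tested genes.

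Endothelial and fibroblast markers were also highest in 456wt. The 7 endothelial markers summed to 19.0, 24.1, 15.8 and 40.2 FPKM in 186wt, 343wt, 444wt and 456wt, and 7 of 7 were above all other libraries in 456wt. The 5 fibroblast markers summed to 229, 323, 273 and 728 FPKM, with 4 of 5 above all others in 456wt. The share over all tested genes was 9.18%. No marker of these 3 lists was at 0. Their part in the beta levels was not tested.

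The gamma locus had another order, 343wt, 456wt, 186wt, 444wt. The sum of the 6 Leydig-cell markers had the same one, with 110.5, 60.9, 56.5 and 16.1 FPKM. So did the sum of the 6 macrophage markers, with 21.4, 16.2, 11.6 and 5.56 FPKM. Not every gene had this order: Star, Cyp17a1, Lhcgr and Mrc1 were higher in 186wt than in 456wt, and Ptprc was highest in 456wt. All 12 of these markers were lowest in 444wt, and none was at 0. Sertoli-cell markers were lower in both 444wt and 456wt (2595 and 2760 FPKM, against 4461 in 186wt and 4636 in 343wt). Their sum was thus also highest in 343wt and lowest in 444wt, like the gamma locus, but with 186wt above 456wt. The sums of germ-cell markers were highest in 444wt, with 690 FPKM for 13 meiotic genes and 893 FPKM for 9 spermatogonial genes. Single genes departed from this, with Rec8 highest in 186wt, Gfra1 and Id4 highest in 456wt, and Id4 lowest in 444wt. The part of any of these cell types in the gamma level was not tested.

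Neuron and glia markers had another order than the beta genes. The 9 of them found summed to 157, 158, 96.8 and 100.1 FPKM, with 0 of 9 highest in 456wt. Tubb3, a neuronal tubulin gene, held most of this sum (102.5 ± 32.3 FPKM), whereas the synaptic gene Snap25 had 0.113 ± 0.0492 FPKM and the neuronal splicing factor gene Rbfox3 0.994 ± 0.366 FPKM.

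**Figure D4:**
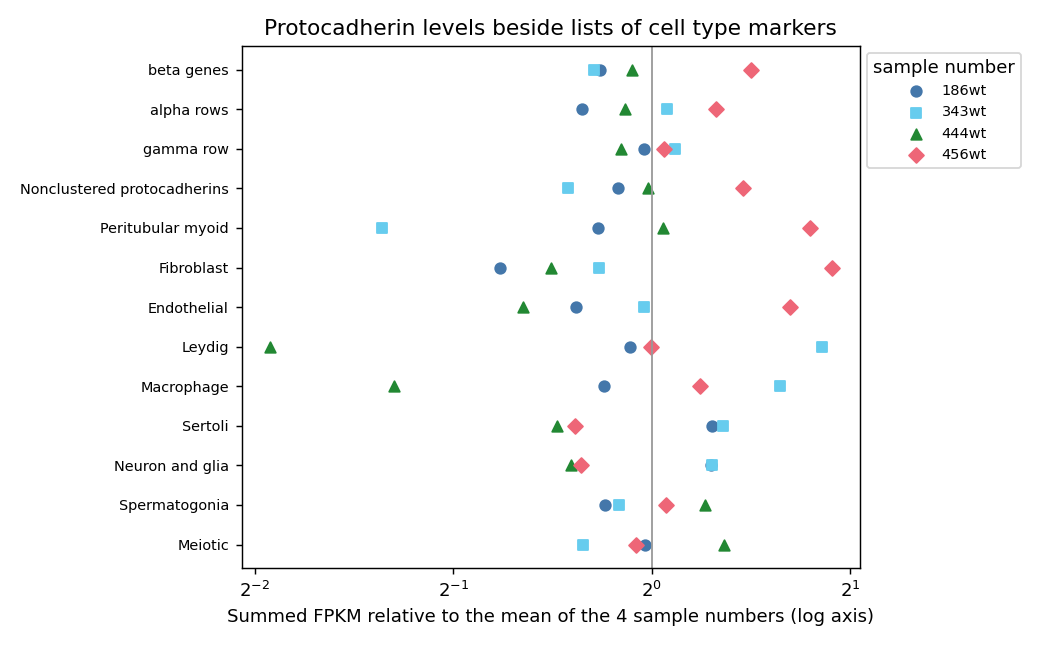
Summed FPKM of the beta genes, the alpha entries, the gamma locus, the nonclustered protocadherins and 9 lists of cell type markers in each sample number, divided by the mean of the 4 numbers (log axis), with 1 marker per sample number. The diamonds of 456wt are rightmost for the beta genes, the alpha entries, the nonclustered protocadherins and the myoid, fibroblast and endothelial markers. The squares of 343wt are rightmost for the gamma locus and the Leydig, macrophage and Sertoli markers, and narrowly for the neuron and glia markers.

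The nonclustered protocadherins, which lie as separate genes and share the cadherin repeats but no constant exons, were also low. Of 13 entries 10 were tested and 6 were called, against 58.2% of all tested genes. Most of the tested ones had a mean below 1 FPKM, where 19.2% of genes were called, and of these Pcdh12, Pcdh11x and Pcdh8 were called. Their sum was 7.73, 6.48, 8.57 and 11.9 FPKM in 186wt, 343wt, 444wt and 456wt, the same order as the beta sum. The single genes did not all share this order, and 6 of the 13 entries were highest in 456wt. Pcdh11x was highest in 186wt, and Pcdh8, Pcdh17 and Pcdh19 were highest in 444wt. The median of the 13 entries was lowest in 456wt, at 0.237 FPKM. The highest entry was Pcdh7 with 3.01 ± 1.16 FPKM (limma adjusted p = 4.68e-05). It was followed by Pcdh1 with 2.01 ± 0.671 FPKM and Pcdh18 with 1.22 ± 0.432 FPKM. In mean FPKM these 3 exceeded every beta gene, and none approached the gamma locus.

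Genes around and between the clusters were not uniformly low. Zmat2, upstream of the alpha cluster, had 28.1 ± 1.63 FPKM. Taf7, an intronless gene for a subunit of the transcription factor TFIID between the beta and gamma clusters, had 57.8 ± 6.48 FPKM. Beside it the mitochondrial carrier gene Slc25a2 had 0.272 ± 0.116 FPKM and the gene 3222401L13Rik 0.568 ± 0.109 FPKM. Diap1, a formin gene that lies 1.73 kb past the gamma locus, had 12.5 ± 0.382 FPKM, and the histone deacetylase gene Hdac3 behind it 61.4 ± 2.56 FPKM. These genes were named after their values were seen, and the genes closest to the clusters included low ones too: Gm6756, 8.08 kb before the alpha cluster, had 0.00583 FPKM. Inside the alpha locus the antisense noncoding gene Gm10544 had 0.289 ± 0.109 FPKM, a level like that of the alpha locus, without overlap of exons.

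Apart from Dnmt3l, the listed CTCF, cohesin and silencing genes were present at far higher levels than the beta genes. All 16 CTCF and cohesin genes were expressed and 12 passed the limma test between sample numbers, against 58.2% of all tested genes and 83.3% of those from 10 to below 100 FPKM. Ctcf had 36.1 ± 1.22 FPKM, with 36.8, 34.4, 37.1 and 35.8 in the 4 numbers, and did not pass (limma adjusted p = 0.106). Its germ-cell paralog Ctcfl had 5.24 ± 0.840 FPKM and was highest in 444wt (adjusted p = 2.95e-05). The cohesin kleisin Rad21 had 104 ± 4.43 FPKM, its meiotic counterparts Rec8 and Rad21l 20.6 ± 4.32 and 6.70 ± 2.06 FPKM.

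Other ring and accessory subunits of cohesin followed. The ring genes Smc3, Smc1a and the meiotic Smc1b had 51.3 ± 5.19, 26.8 ± 1.31 and 47.5 ± 14.2 FPKM. The subunit genes Stag1, Stag2 and the meiotic Stag3 had 47.3 ± 3.64, 22.5 ± 0.603 and 92.9 ± 18.7 FPKM. The loader genes Nipbl and Mau2 had 20.04 ± 2.17 and 30.7 ± 3.05 FPKM, and the release factor genes Wapal, Pds5a and Pds5b 73.7 ± 7.18, 31.9 ± 0.505 and 26.2 ± 2.56 FPKM. None of the 16 had its 3 libraries of 456wt above the other 9, against 9.18% of all tested genes. For so few genes this is near that share.

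Of the 12 silencing genes all were expressed and 10 were called, a share like the 83.3% of genes from 10 to below 100 FPKM. The highest were the corepressor Trim28 with 200.6 ± 18.9 FPKM, the histone methyltransferase Ehmt2 with 154.6 ± 17.4 FPKM and the maintenance DNA methyltransferase Dnmt1 with 83.9 ± 14.2 FPKM. Smchd1, a structural maintenance protein that acts on silenced gene clusters, had 30.4 ± 4.33 FPKM. The de novo DNA methyltransferase genes Dnmt3a and Dnmt3b had 45.1 ± 3.40 and 29.8 ± 6.52 FPKM, and their cofactor gene Dnmt3l 1.13 ± 0.259 FPKM. Smchd1, Dnmt3a and Dnmt3b were highest in 444wt (limma adjusted p = 1.38e-06, 0.00567 and 1.11e-07). They were among the 22 of 28 CTCF, cohesin and silencing genes with the highest mean FPKM in 444wt, so this was not particular to them.

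**Figure D5:**
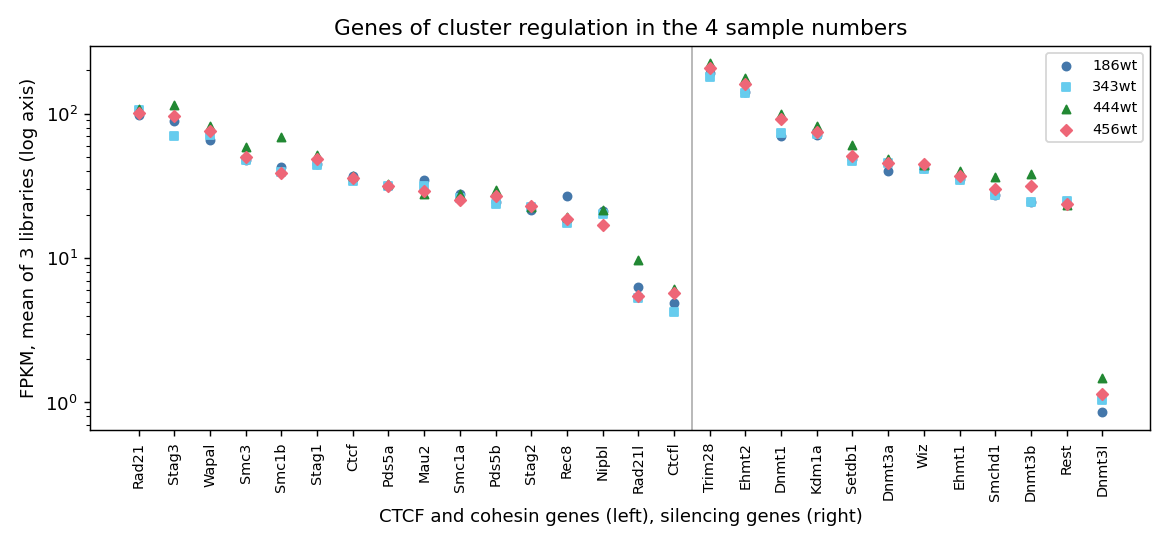
FPKM (log axis) of 16 CTCF and cohesin genes (left) and 12 silencing genes (right), each list in order of its mean, with 1 marker for the mean of 3 libraries of each sample number. All 28 genes were expressed, Ctcf at 36.1 FPKM, and the triangles of 444wt are the highest marker for 22 of them.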

How the data were processed

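The authors mapped paired-end reads of 100 bp with Bowtie 0.12.9 to the NCBI build 37 transcriptome, left out those with at least 2 mismatches, and used RSEM 1.2.8 for the FPKM (fragment length 280 ± 50 bp). The deposited FPKM have 2 decimals. The annotation release is not given in the sources used here, and positions came from GENCODE M1, which holds 37205 of the 37620 identifiers.

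The 20795 genes averaging 0.1 FPKM or more were fitted with limma 3.58.1 in R 4.3.3 (lmFit, eBayes with trend, F-test between 4 sample numbers) on log2(FPKM + 0.1), with Benjamini-Hochberg adjustment over all of them and a threshold of 0.05. The pseudocount understates changes of low genes. The scripts were tested on simulated data. Depth was estimated from 434 single-transcript genes of 400 to 900 bp and is approximate, because values are rounded. Other values used Python 3.11.15, numpy 2.4.6, pandas 2.3.3, scipy 1.17.1 and matplotlib 3.10.9.

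Genes were named by rule: the 4 highest and the lowest beta genes, all alpha and gamma entries, the 8 smallest p-values, the 3 highest genes of each pathway list, and all CTCF, cohesin, Smchd1 and Dnmt3 genes. Flanking genes, single markers, antisense genes and the other beta genes above all libraries in 456wt were named after their values were seen. The members and lists were chosen with earlier results of these data known. Alternatives changed the definition of expression, pseudocount, filter, scaling, trend, block and samples. The C-type members have no entries of their own, so leaving them out was not run. Counting the beta genes alone and libraries of 456wt above all others were added after the data were seen.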

Additional observations from a re-analysis of the deposited data

Results flagged for a closer look

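In 7 of 86 values compared over the 4 sample numbers, 1 number stood apart from the other 3 by Dixon's ratio, and chance gives about 4.3 of 86. Of the protocadherins of the clusters, Pcdha3 was at 0.02 FPKM in 456wt and at 0 in the others, Pcdhb7 at 0.433 FPKM in 456wt and at 0.257 to 0.263 in the others, and Pcdhb11 at 0.373 FPKM in 456wt and at 0.150 to 0.187 in the others. The ratio is always 1 when only 1 value is above 0, so the flag of Pcdha3, on about 2.13 fragments, carries no weight. The chance figure does not allow for such values. Without 456wt the mean of Pcdhb7 was 0.260 FPKM and that of Pcdhb11 0.173 FPKM. The nonclustered Pcdh1 was at 3.01 FPKM in 456wt and at 1.59 to 1.78 in the others.

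Among the cohesin genes Smc1b was at 68.7 FPKM in 444wt, against 38.9 to 43.0 in the others, and Stag2 at 21.6 FPKM in 186wt, against 22.7 to 22.9. The gene 3222401L13Rik between the beta and gamma clusters was at 0.407 FPKM in 343wt, against 0.603 to 0.643.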

How the results depend on the processing

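Of 104 alternative values of the main results, 86 stayed within 1.5 times the main count or within 1 SD of the main value. When any value above 0 FPKM counted as expressed, 2 alpha entries were expressed, and with a minimum of 1 FPKM 0 alpha and 0 beta genes were. The cluster sums and their log2 differences moved by less than their SD under every alternative run. For the leave-outs of a sample number this was fixed in advance, since dropping 1 of 4 values cannot move their mean by 1 SD. Rescaling to the same total nearly cancels in the log2 differences, and library totals were close to each other, so it could hardly move these values either. These leave-outs and rescaled values are among the 86 values that stayed and say nothing on how firm the levels are. The 7 protocadherins called became 1 with a minimum of 1 FPKM (1 tested), 3 with quantile normalization, 4 with the replicate block and 10 with no trend, and 1 to 8 when a sample number or a library of each number was left out. The 6 beta genes called became 2 with quantile normalization, 3 with the replicate block, 9 with no trend and 0 to 7 in those leave-outs. Leaving out 456wt gave 1 protocadherin and 0 beta genes, leaving out 343wt 2 and 1, and leaving out library 1, 2 or 3 of every number 2 to 3 and 1 to 2. With the replicate block the adjusted p-values of Pcdhb11, Pcdhb13 and Pcdhb14 were 0.0774, 0.0591 and 0.0641. The library numbers share only a number. Between libraries of different sample numbers, deviations correlated at -0.041 to 0.030 with the same library number. With different library numbers they correlated at -0.034 to 0.040. Depth limits the beta values, since such a gene had about 148.5 fragments in the median over the 12 libraries together.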

Other observations

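Other cadherin superfamily genes ranged widely. Of 23 numbered cadherins 18 were tested and 12 were called, against 58.2% of all tested genes and 19.2% of those from 0.1 to below 1 FPKM. The highest were Cdh23 with 61.1 ± 17.9 FPKM and the neural cadherin gene Cdh2 with 30.7 ± 6.10 FPKM, both lower in 444wt and 456wt than in 186wt and 343wt, followed by the endothelial cadherin gene Cdh5 with 9.68 ± 3.63 FPKM, highest in 456wt. Of 8 Fat, Dchs and Celsr genes 7 were tested and 5 were called, against the same shares. Fat1, with 43.5 ± 7.32 FPKM, was far above Celsr2 with 4.98 ± 0.887 FPKM and Dchs1 with 2.82 ± 0.843 FPKM.

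Genes of protocadherin signalling and processing were expressed in 21 of 21 cases, and 18 were called, against 83.3% of genes from 10 to below 100 FPKM. The highest were the small GTPase Rac1 with 102 ± 8.58 FPKM, the gamma-secretase subunit gene Ncstn with 77.7 ± 12.9 FPKM and the WAVE complex gene Nckap1 with 77.1 ± 17.4 FPKM. The membrane protease gene Adam10, chosen after its values were seen, had 55.6 ± 7.89 FPKM.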
